A study of Mus musculus with 8 samples.

Results

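The Fam19a genes encode a family of 5 secreted chemokine-like proteins, Fam19a1 to Fam19a5, which RefSeq now names Tafa1 to Tafa5. They were found by gene name among the spots of the array and are 5 of the 27425 genes that passed the filter on dim probes, measured by 6 of 55681 probes. All 5 members passed the filter, for which 1 nucleus had to show the probe well above background on all of its arrays. The members were chosen by their log2 signals across the 3 nuclei, which were already known, so differences between nuclei in its members are given as descriptions, with no test. Labelled neurons of the mouse hypothalamus were compared between the dorsomedial hypothalamus (DMH, 3 samples), the ventromedial hypothalamus (VMH, 3 samples) and the arcuate nucleus (Arc, 2 samples). The series asked which genes are enriched in the Nkx2-1-positive neurons of each nucleus. All 3 groups came from 2-month-old female mice of the strain Nkx2-1-CreERT2 x Rosa-ZsGreen that had been given tamoxifen, and no group without the driver, the reporter or tamoxifen was included. Cells were green because the Nkx2-1 gene drove a tamoxifen-dependent Cre, which turned on the fluorescent protein ZsGreen. Each sample was a pool of such neurons cut out by laser microdissection, so it mixes neuron types. The labels do not tie samples to animals, so samples may share an animal. P-values therefore reflect how these samples scatter, possibly for technical reasons, and are too small where samples of a nucleus share an animal.

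Proteins of this family are small, carry a conserved pattern of cysteines and are distantly related to the CC chemokines, the chemoattractant proteins of the immune system. Most members are made mainly in the nervous system. Several bind neurexins, the presynaptic adhesion proteins that organise synapses, and some have been reported to act through G protein-coupled receptors. In mice, Fam19a4 is known best as a product of a class of touch-sensing neurons of the dorsal root ganglia that dampens injury-induced pain.

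Fam19a4 and Fam19a1 lie next to each other on chromosome 6, with no other gene named on the array between their probes, which are 187 kb apart, and they are read from opposite strands. The Fam19a4 probe on which most of the values below rest lies at chr6:96793753-96793812 on the minus strand of the mm9 build, that of the array design. Its 60 bases, as given in the scanner output, are shown because this probe carries the clearest pattern of the family.
Fam19a4 probe: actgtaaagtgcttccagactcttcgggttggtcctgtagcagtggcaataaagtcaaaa
The 250 bases before the start of each of these neighbouring genes are shown to set side by side the promoters of members whose signals followed different patterns. Both are from RefSeq on the build GRCm38.p6, at chr6:96112904-96113153 on the plus strand for Fam19a1 and chr6:97060412-97060661 on the minus strand for Fam19a4, with CpG dinucleotides in capitals.
Fam19a1 promoter: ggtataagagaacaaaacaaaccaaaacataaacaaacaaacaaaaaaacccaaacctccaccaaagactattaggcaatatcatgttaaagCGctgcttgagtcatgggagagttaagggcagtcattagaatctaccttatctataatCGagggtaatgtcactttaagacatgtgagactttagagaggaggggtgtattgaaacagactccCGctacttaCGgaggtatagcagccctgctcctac
Fam19a4 promoter: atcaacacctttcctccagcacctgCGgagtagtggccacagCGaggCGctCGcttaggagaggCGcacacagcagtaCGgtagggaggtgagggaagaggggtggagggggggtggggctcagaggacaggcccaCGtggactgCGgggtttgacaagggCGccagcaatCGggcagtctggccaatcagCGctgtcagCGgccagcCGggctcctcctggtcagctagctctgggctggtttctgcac
The Fam19a4 window held 13 CpGs and a GC content of 65.2%, and the Fam19a1 window held 4 CpGs and a GC content of 40.8%. As many CpGs or more were present in 31.5% of all 32851 promoter windows of that length for Fam19a4, and in 62.2% for Fam19a1. Fam19a2 and Fam19a3 had 6 CpGs each, the median over all windows. Fam19a5 had 2 windows with 48 and 38 CpGs, numbers reached by 0.186% and 1.88% of windows. Of 3 motifs searched on both strands, CACGTG was found in the Fam19a4 window alone among the members and in 6.02% of all windows. CCAAT was found in the windows of Fam19a2 and Fam19a4 and in 33.8% of all windows. CAAGTG was found in no member's window and in 11.6% of all windows.

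On each array 72.4% to 78.7% of probes were well above background, all arrays were on 1 slide from 1 scan, and their number limits the precision. Every value is scaled to its array's 75th percentile, which was 2107 to 3042 on DMH arrays, 1866 to 2036 on VMH arrays and 1806 to 1818 on Arc arrays, and its part in the differences was not tested. The nucleus labels were set beside marker genes with limma, after Benjamini-Hochberg adjustment. The marker lists were chosen with earlier results of these arrays known, so the counts are no independent check of the labels. Grp, Prdm13 and Fezf1 also passed the filter only through the nucleus where they were high. All 7 DMH neuron markers passed as higher in DMH than in VMH and 4 of 7 as higher in DMH than in Arc. All 6 VMH neuron markers passed as lower in DMH than in VMH, and 4 of 6 as higher in VMH than in Arc. All 7 Arc neuron markers passed as lower in VMH than in Arc, and 5 of 7 as lower in DMH than in Arc.

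Fam19a4 had its highest signal in DMH and was dim in VMH and Arc. Its log2 signal, which is log2 of the processed signal minus that of the array's 75th percentile, was 0.55, 1.21 and 1.55 on the DMH arrays, -3.00, -4.06 and -2.15 on those of VMH, and -3.69 and -2.70 on those of Arc. Every DMH array lay far above every array of the other nuclei, while VMH and Arc overlapped. Before scaling, the processed signals were 4460, 5377 and 6150 on the DMH arrays, 254, 112 and 445 on those of VMH, and 140 and 278 on those of Arc. VMH replicate 2 was not well above background, and the other 7 arrays were. The means were 1.1 ± 0.51 in DMH, -3.07 ± 0.96 in VMH and -3.20 ± 0.71 in Arc (SD, n = 3, 3 and 2 arrays). DMH minus VMH was 4.18 ± 0.52 and DMH minus Arc was 4.30 ± 0.58 (log2, SE), at least 18.1-fold and 19.7-fold higher in DMH. With normexp background correction the log2 differences were 3.17 and 3.22, smaller than these folds, which hold only at the background correction used here. VMH minus Arc was 0.12 ± 0.58. Where a dim array was not well above background, a fold is written as "at least" and set against the higher of that array's lowest signal above background and the probe's own.

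A second Fam19a4 probe, 12.3 kb away at chr6:96781412-96781471 (mm9, minus strand), was also highest in DMH. Its log2 signal was -0.20, -1.90 and -1.90 on the DMH arrays, and it was not well above background on any VMH or Arc array. DMH minus VMH was 3.28 ± 0.47 and DMH minus Arc 2.97 ± 0.52 on this probe, at least 7.67-fold and at least 6.41-fold higher in DMH. These bounds are given only at the background correction used here, as this probe was not refitted alone with normexp. It passed the filter only through DMH. DMH replicate 1 was the highest array on this probe and the lowest of the DMH arrays on the other one. The slide has 2 rows of arrays, and both rows hold arrays of every nucleus. Within row 1, Fam19a4 on its first probe had a DMH minus VMH of 3.04 and a DMH minus Arc of 3.58, and within row 2 these were 5.08 and 5.24. VMH minus Arc was 0.54 and 0.16 in the same rows.

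**Figure D1:**
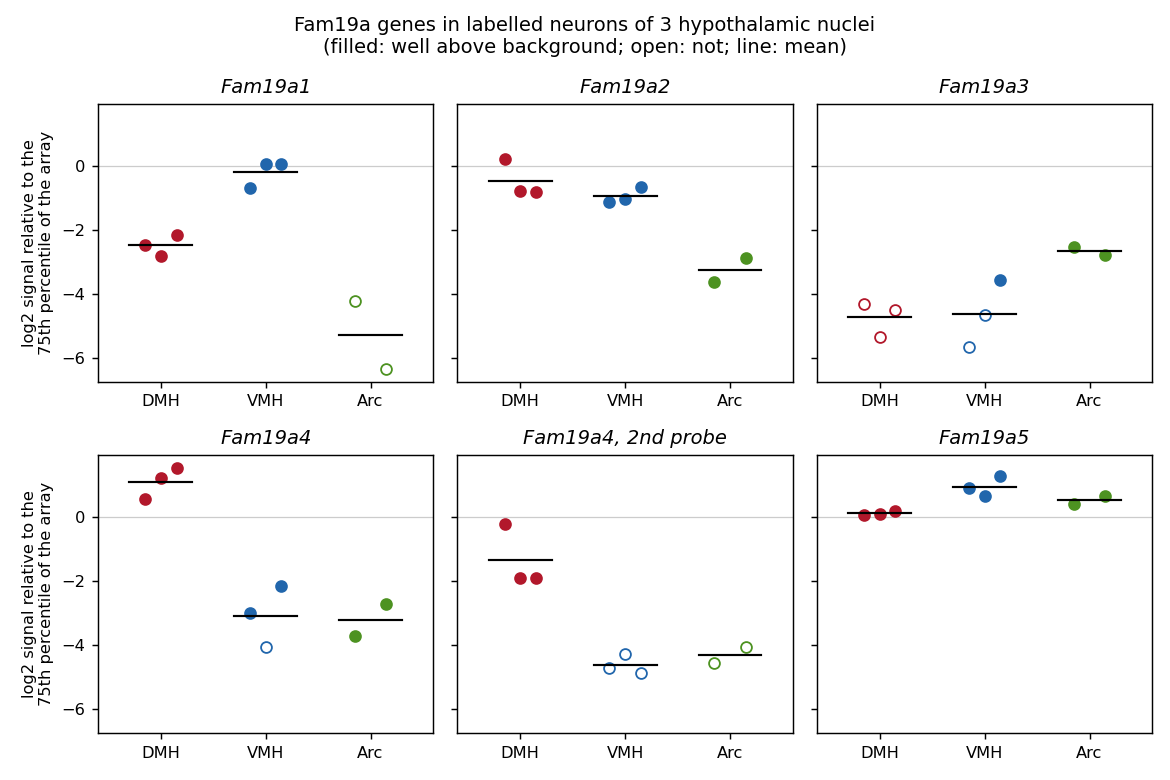
Log2 signal of the 6 Fam19a probes, scaled to each array's 75th percentile, 1 point per array, with DMH, VMH and Arc from left to right and a line at each nucleus mean. Filled points are well above background and open points are not. Fam19a4 has its highest signals on the 3 DMH arrays, Fam19a1 on the 3 VMH arrays, and Fam19a3, which is dim throughout, on the 2 Arc arrays.

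Fam19a1, the neighbour of Fam19a4, had its highest signal in VMH. Its probe lies at chr6:96607132-96607191 (mm9, plus strand). Its log2 signal was -2.46, -2.82 and -2.15 on the DMH arrays, -0.70, 0.05 and 0.05 on those of VMH, and -4.23 and -6.34 on those of Arc. The nuclei did not overlap in any pair, and the order was VMH, DMH, Arc, with neither Arc array well above background. The means were -2.48 ± 0.34 in DMH, -0.20 ± 0.43 in VMH and -5.29 ± 1.49 in Arc. The difference DMH minus VMH was -2.28 ± 0.52, which is 4.85-fold lower in DMH, and with normexp background correction it was smaller, at -1.74. DMH minus Arc was 2.81 ± 0.58 and VMH minus Arc 5.08 ± 0.58, at least 2.89-fold and at least 14-fold higher than in Arc. With normexp background correction these were 1.27 and 3.01, smaller than the bounds. The Arc arrays are at background, so their order and their spread carry no level. Without Arc replicate 1, DMH minus Arc was 3.86, and without Arc replicate 2 it was 1.75. Within row 1 of the slide DMH minus VMH was -2.69 and VMH minus Arc 6.39, and within row 2 these were -1.83 and 3.90.

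Fam19a2, which in mice has been linked to the survival of neurons and to memory, had similar signals in DMH and VMH and lower ones in Arc. Its probe lies at chr10:123177891-123177950 (mm9, plus strand). Its log2 signal was 0.20, -0.79 and -0.83 on the DMH arrays, -1.13, -1.02 and -0.67 on those of VMH, and -3.61 and -2.89 on those of Arc. All 8 arrays were well above background, both Arc arrays lay below every other array, and DMH and VMH overlapped. The means were -0.48 ± 0.58 in DMH, -0.94 ± 0.24 in VMH and -3.25 ± 0.51 in Arc. The difference DMH minus VMH was 0.47 ± 0.34. DMH minus Arc was 2.78 ± 0.38 and VMH minus Arc 2.31 ± 0.38, which are 6.86-fold and 4.96-fold higher than in Arc. With normexp background correction they were 1.69 and 1.31. Within the slide rows, DMH minus Arc was 2.60 and 2.78, and VMH minus Arc 2.22 and 2.54.

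Fam19a3 ran the other way, with its highest signal in Arc. Its probe lies at chr3:104570381-104570440 (mm9, minus strand). Its log2 signal was -4.31, -5.34 and -4.50 on the DMH arrays, -5.64, -4.64 and -3.57 on those of VMH, and -2.52 and -2.79 on those of Arc. Both Arc arrays were well above background and above every other array. No DMH array and only VMH replicate 3 was well above background, so the signals of DMH and VMH, which overlapped, are mostly bounds. The means were -4.72 ± 0.55 in DMH, -4.62 ± 1.04 in VMH and -2.65 ± 0.19 in Arc. DMH minus Arc was -2.06 ± 0.57 and VMH minus Arc -1.96 ± 0.57, with Arc at least 4.08-fold and at least 2.55-fold higher at this background correction. With normexp background correction they were only -0.69 and -0.70, smaller than these bounds. Between DMH and VMH the difference was -0.10 ± 0.51. Within rows 1 and 2 of the slide, DMH minus Arc was -2.03 and -1.98 and VMH minus Arc -0.78 and -2.62. DMH minus VMH was -1.25 and 0.65 there, with opposite signs.

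Fam19a5, a member reported to act on the sphingosine-1-phosphate receptor S1pr2, varied least. Its probe lies at chr15:87589700-87589759 (mm9, plus strand). Its log2 signal was 0.08, 0.11 and 0.19 on the DMH arrays, 0.91, 0.67 and 1.29 on those of VMH, and 0.40 and 0.67 on those of Arc. All 8 arrays were well above background, the DMH arrays were the lowest, and the lowest VMH and the highest Arc array had nearly equal signals. The means were 0.13 ± 0.06 in DMH, 0.96 ± 0.32 in VMH and 0.53 ± 0.19 in Arc. DMH minus VMH was -0.83 ± 0.21, DMH minus Arc -0.40 ± 0.24 and VMH minus Arc 0.43 ± 0.24. Within row 1 of the slide DMH minus VMH was -1.20, and within row 2 it was -0.60.

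**Figure D2:**
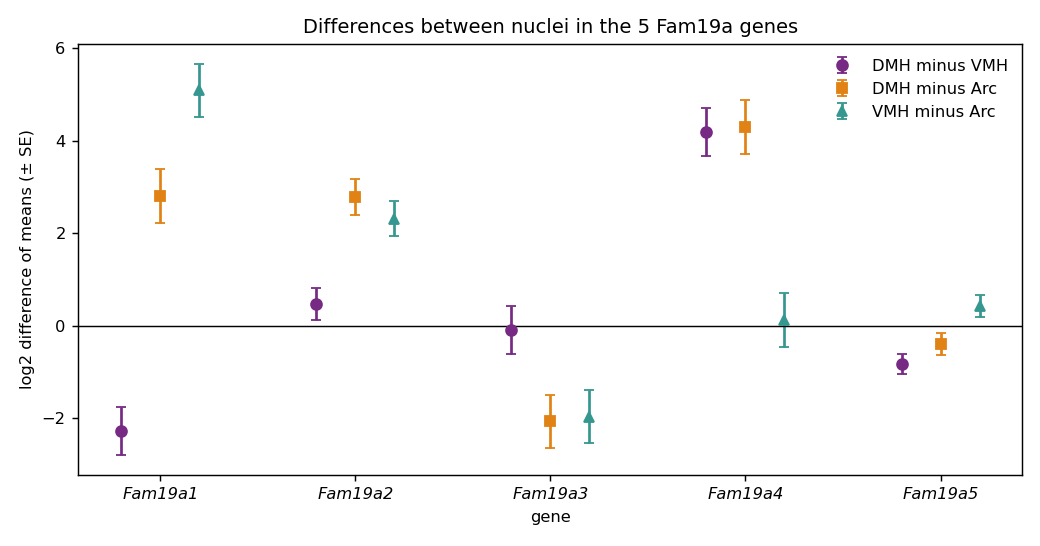
Log2 difference of nucleus means for each Fam19a gene on its brightest probe, with bars of 1 SE from the fit over all 8 arrays. Circles are DMH minus VMH, squares DMH minus Arc and triangles VMH minus Arc. Fam19a4 is near 4 in both comparisons of DMH and near 0 between VMH and Arc.

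The members thus differed in the nucleus with the highest mean, which was DMH for Fam19a2 and Fam19a4, VMH for Fam19a1 and Fam19a5 and Arc for Fam19a3. DMH and VMH overlapped for Fam19a2, so its top 2 nuclei have no firm order, and VMH and Arc were barely apart for Fam19a5. In DMH minus VMH, 3 of 5 members had arrays that did not overlap, against 21.7% of the 27422 genes tested. In DMH minus Arc this held for 5 of 5 members, against 33.4% of genes, and in VMH minus Arc for 4 of 5 members, against 35% of genes. The median log2 difference over the 5 members was -0.10 in DMH minus VMH, 2.78 in DMH minus Arc and 0.43 in VMH minus Arc, beside -0.04, -0.05 and -0.03 over all genes tested. In the fit across all genes, limma with an adjusted p under 0.05, 1 member passed in DMH minus VMH, where 1.23% of genes did. In DMH minus Arc 2 members passed, where 0.427% of genes did, and in VMH minus Arc 2 members passed, where 0.977% did. These counts come from the contrasts for which the family was chosen and carry no weight of their own. In pooled neurons, fewer cells with a transcript and less of it per cell cannot be told apart.

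Markers of transmitter type also differed between the nuclei. The summed signal of Gad1, Gad2 and Slc32a1, the GABA synthesis and packaging genes, in multiples of the array's 75th percentile, was 7.06 to 13.0 in DMH, 0.735 to 1.54 in VMH and 10.4 to 11.8 in Arc. All 3 passed as higher in DMH than in VMH and all 3 as lower in VMH than in Arc. Slc17a6, the vesicular glutamate transporter of most hypothalamic glutamatergic neurons, had mean log2 signals of 0.30 in DMH, 0.73 in VMH and -2.19 in Arc. It passed as higher than in Arc in both nuclei, by 2.49 ± 0.33 in DMH (limma, adjusted p = 0.0358) and by 2.92 ± 0.33 in VMH (adjusted p = 0.0123). Fam19a1 and Fam19a2 were likewise lowest in Arc. The part of transmitter type in the signals of the family was not tested.

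Of non-neuronal markers, the 6 astrocyte genes summed to 10.8 to 12.6 in DMH, 7.20 to 10.4 in VMH and 6.49 to 8.48 in Arc. The 6 microglial genes, led by the probe for Itgam, summed to 110 to 147 in DMH, 158 to 187 in VMH and 210 to 239 in Arc. The 6 oligodendrocyte genes summed to 13.7 to 19.9 in DMH, 18.0 to 27.7 in VMH and 8.50 to 17.1 in Arc. The 5 tanycyte and ependymal genes summed to 1.01 to 1.41 in DMH, 2.53 to 3.06 in VMH and 3.89 to 4.40 in Arc, and the 5 endothelial genes to 2.50 to 3.38 in DMH, 3.09 to 3.38 in VMH and 3.91 to 4.32 in Arc. The 3 oligodendrocyte precursor genes summed to 0.804 to 1.60 in DMH, 1.15 to 1.39 in VMH and 1.76 to 2.15 in Arc. Of these lists 1 gene passed, Crym, lower in DMH than in VMH by limma (log2 difference -1.83 ± 0.32, adjusted p = 0.0466). Of all genes tested, 13.2% had an unadjusted p under 0.05 in DMH minus VMH, 16.6% in DMH minus Arc and 14.2% in VMH minus Arc. In the same 3 pairs this held for 2, 3 and 0 of 6 astrocyte genes, 1, 3 and 1 of 6 microglial genes, 0, 1 and 1 of 6 oligodendrocyte genes, 2, 2 and 1 of 5 tanycyte and ependymal genes, 0, 2 and 0 of 5 endothelial genes and none of the oligodendrocyte precursor genes. The 5 pan-neuronal genes summed to 180 to 221 in DMH, 244 to 295 in VMH and 269 to 278 in Arc, a sum led by Snap25 and lowest in DMH. Snap25, Tubb3 and Eno2 had their lowest means in DMH, and Syt1 and Rbfox3 had theirs in Arc. Of the 5 genes only Syt1 passed, and only against Arc. It was higher than in Arc in DMH (1.45 ± 0.19, limma, adjusted p = 0.0312) and in VMH (1.5 ± 0.19, adjusted p = 0.015). Snap25 had a DMH minus Arc of -0.62 ± 0.23 (limma, adjusted p = 0.243). Astrocyte sums were highest in DMH, as Fam19a4 was, and tanycyte, endothelial and oligodendrocyte precursor sums were highest in Arc, as Fam19a3 was. The tanycyte sum was led by Col23a1 and the endothelial sum by Kdr. Not every gene followed the sum of its list. Aqp4 was slightly lower in DMH than in VMH, Crym was highest in VMH, Flt1 was highest in DMH, and Cldn5 and Pdgfra were lowest in Arc. The microglial sum was also highest in Arc, but followed Itgam. Itgam, Csf1r and C1qa were highest in Arc, with DMH minus Arc values of -0.84, -0.50 and -1.29. For Cx3cr1, Tmem119 and Aif1 these values were 0.34, 0.46 and 0.02. The part of these cell types in the signals of the family was not tested.

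Genes whose pattern over the 8 arrays was most like a member were ranked by the root mean square difference of log2 signals, after each gene was centred on its own mean, among 15353 candidates. For Fam19a4 the closest were Col27a1 (0.75), Ebf3 (0.76), Tekt1 (0.76), Allc (0.79) and Nr2e1 (0.82), where the median candidate stood at 2.16. For Fam19a1 they were Chia (0.44), Gng13 (0.62), Rtn4rl1 (0.67), Ptprr (0.69) and Kcnq3 (0.72), with a median of 2.09. Ebf3 and Nr2e1 encode transcription factors, Gng13 a G protein subunit and Kcnq3 a potassium channel subunit. For Fam19a2 the closest were Cwc25 (0.35), Tox3 (0.36), Isoc1 (0.36), Nrros (0.37) and Bcl7a (0.37), with a median of 1.23. For Fam19a3 they were Cftr (0.24), Tnfrsf1b (0.39), Ezr (0.40), Olfr612 (0.43) and Slc18a2 (0.44), with a median of 1.13. Slc18a2 packages monoamines into vesicles and Cftr is a chloride channel. Many of these values are at background and carry no level there: Fam19a3 was well above background on 3 of the 8 arrays and Cftr on 2, and Ebf3, Allc and Nr2e1 on 3 each. For Fam19a3, and for these genes, the ranking thus compares background signals on most arrays. Fam19a5 varied too little between nuclei for such a ranking.

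**Figure D3:**
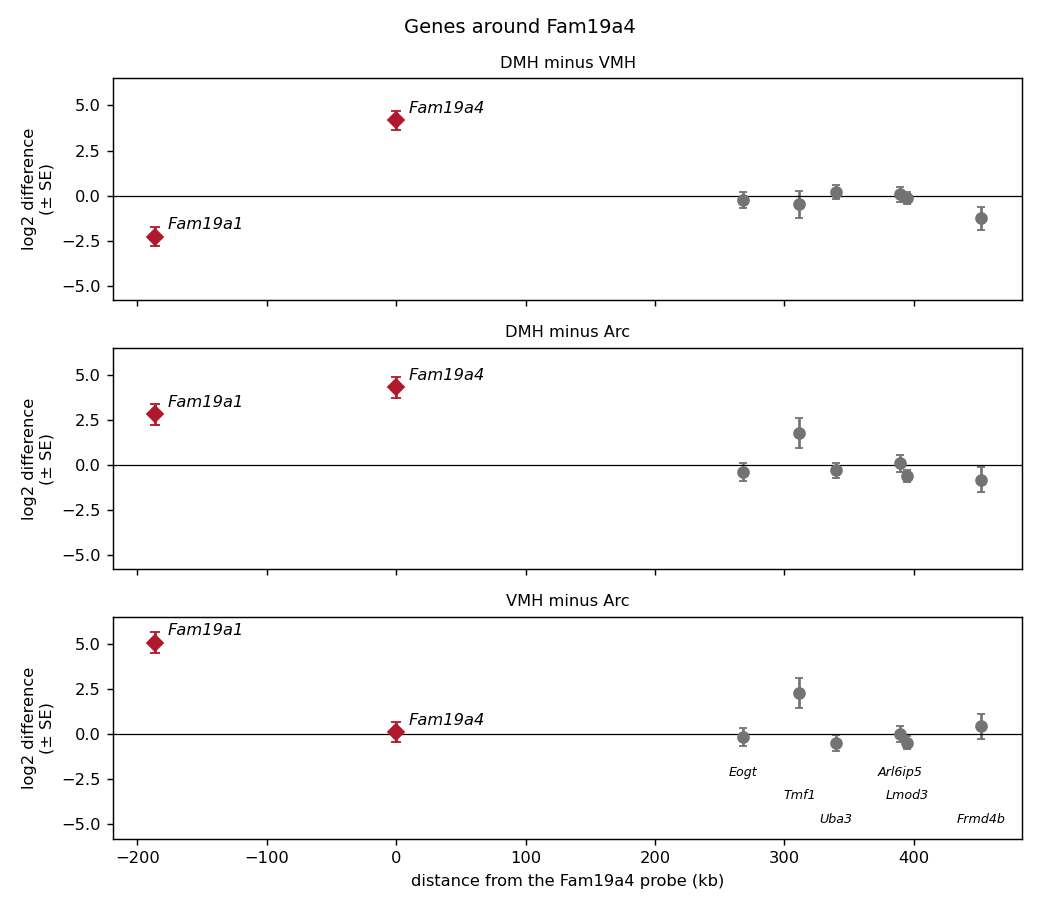
Log2 difference of nucleus means, with bars of 1 SE, for Fam19a1, Fam19a4 (red diamonds) and the 6 other measured genes within 1 Mb (grey circles), against the distance in kb from the Fam19a4 probe. From top to bottom the panels are DMH minus VMH, DMH minus Arc and VMH minus Arc. None of the grey genes passed the test in any panel.

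No measured neighbour of a member passed the test. Of 33 named genes with a probe within 1 Mb of a member, 30 were measured, and by limma 0 passed after adjustment in each pair. At an unadjusted p under 0.05 there were 4 in DMH minus VMH, 2 in DMH minus Arc and 3 in VMH minus Arc, against 13.2%, 16.6% and 14.2% of all genes tested. Nearest to Fam19a4, after Fam19a1, was Eogt, a glycosyltransferase gene 268 kb away, with log2 differences of -0.24 ± 0.46, -0.39 ± 0.52 and -0.15 ± 0.52 in the same 3 pairs. Nearest to Fam19a3 was Ppm1j, a protein phosphatase gene 17.95 kb away, with a DMH minus Arc of -0.25 ± 0.24 and a VMH minus Arc of -0.10 ± 0.24. On its other side the probe of Slc16a1, 108 kb away, did not pass the filter. Fam19a2 had its nearest neighbour, Usp15, 627.5 kb away, with a DMH minus Arc of 0.69 ± 0.33 (limma, adjusted p = 0.343). The nearest to Fam19a5 was Zdhhc25, at 842 kb.

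Of 11 genes listed as binding partners or receptors of the family, 7 were measured, and by limma 0 passed after adjustment in any pair of nuclei. At an unadjusted p under 0.05 there was 1 in DMH minus VMH, 0 in DMH minus Arc and 2 in VMH minus Arc, where all genes tested had the shares just given. The formyl peptide receptors Fpr2 and Fpr3 and the receptor Gpr1 were not well above background on any array, and Fpr1 was on 4 of 8. Nrxn2 and Nrxn3, neurexin genes, were well above background on all arrays. Nrxn2 had mean log2 signals of 5.26 ± 0.29 in DMH, 5.49 ± 0.05 in VMH and 5.48 ± 0.05 in Arc. Nrxn3 had 3.11 ± 0.50 in DMH, 1.94 ± 0.26 in VMH and 2.91 ± 0.15 in Arc on its brightest probe. Its DMH minus VMH was 1.16 ± 0.29 (limma, adjusted p = 0.127) and its VMH minus Arc was -0.97 ± 0.32 (adjusted p = 0.245). S1pr2 had mean log2 signals of -3.77 in DMH, -4.01 in VMH and -3.54 in Arc and was well above background on 3 DMH arrays, 1 VMH array and 1 Arc array. Lrrc4b, a synaptic adhesion gene, had 2.20 in DMH, 2.43 in VMH and 2.09 in Arc, and Lrp1, an endocytic receptor gene, had 3.81 in DMH, 4.02 in VMH and 4.09 in Arc. One of the 3 Lrp1 probes differed from the others, with a DMH minus VMH of 1.40 and a VMH minus Arc of -1.66.

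The 7 Nrxn3 probes all had higher signals in DMH than in VMH, but by sizes between 0.80 and 3.82 on the log2 scale. They were looked at one by one after the values had been seen. The most 5′ probe, at chr12:90033278-90033337 (mm9, plus strand), had log2 signals of 2.54, 3.14 and 3.50 on the DMH arrays, 0.02, -0.71 and 0.24 on those of VMH, and 3.87 and 3.52 on those of Arc. All VMH arrays lay far below all others. In a limma fit over 41477 single probes, 0.984% of which passed in DMH minus VMH and 0.791% in VMH minus Arc, this probe's DMH minus VMH was 3.21 ± 0.34 (adjusted p = 0.00837). Its VMH minus Arc was -3.84 ± 0.38 (adjusted p = 0.00864). The next probe, at chr12:90089234-90089293, was well above background on 1 of 3 VMH arrays, with a DMH minus VMH of 3.82 (limma, adjusted p = 0.107). When the probes of each gene were averaged, Nrxn3 passed in DMH minus VMH (1.73, limma, adjusted p = 0.00681) and in VMH minus Arc (-1.62, adjusted p = 0.0154).

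**Figure D4:**
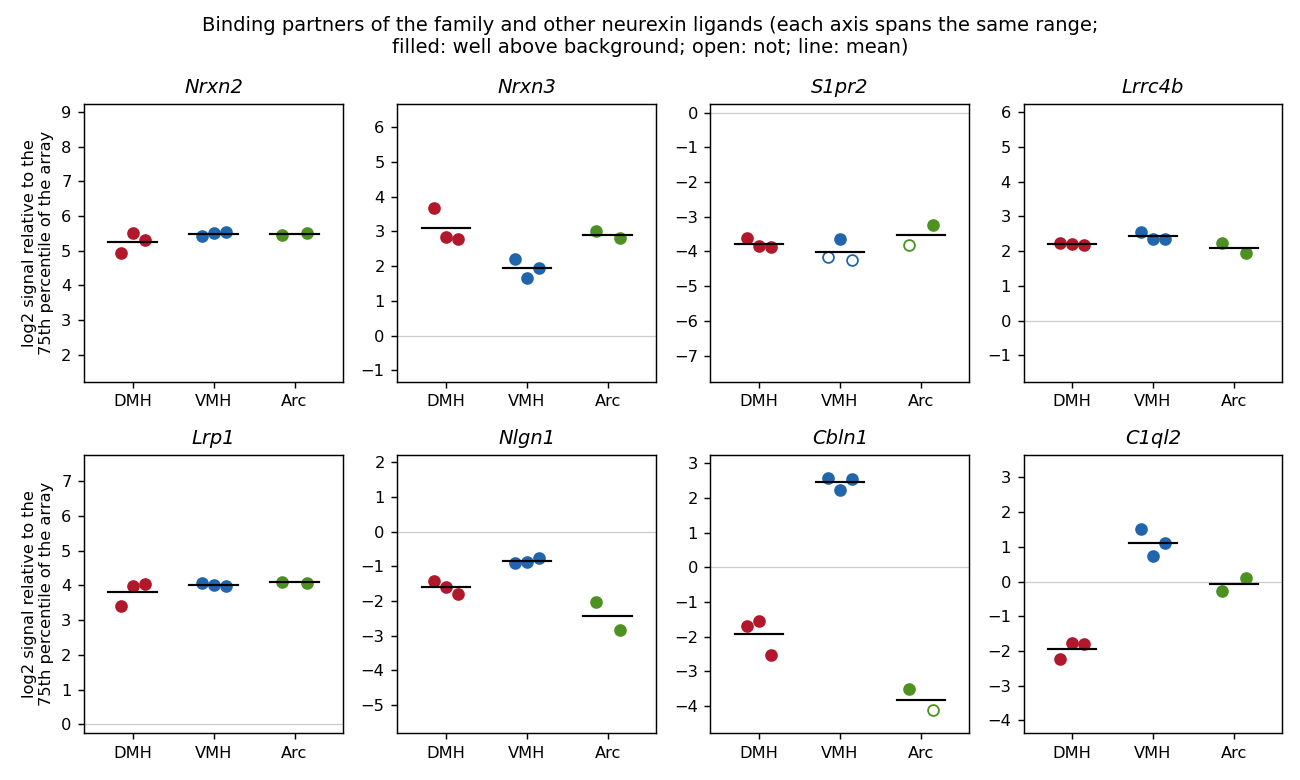
Log2 signal, scaled to each array's 75th percentile, for 5 measured partners and the 3 other neurexin ligands that passed, 1 point per array, with DMH, VMH and Arc from left to right, lines at the means and each axis spanning the same range. Filled points are well above background and open points are not. Cbln1 and C1ql2 are highest on the 3 VMH arrays.

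Other secreted or membrane ligands of neurexins were set beside the family. Of 18 listed, 16 were measured. In DMH minus VMH 2 passed, both lower in DMH, where 1.23% of all genes passed. Cbln1, a secreted synapse organiser of the cerebellin family, had mean log2 signals of -1.92 ± 0.54 in DMH, 2.45 ± 0.18 in VMH and -3.81 ± 0.42 in Arc. Its DMH minus VMH was -4.37 ± 0.31 (limma, adjusted p = 0.00197), and its VMH minus Arc was 6.26 ± 0.35 (adjusted p = 0.000638), at least 75.2-fold higher in VMH. With normexp background correction its VMH minus Arc was 4.64, smaller than this bound. C1ql2, a C1q-like synapse organiser, had means of -1.93 ± 0.25 in DMH, 1.11 ± 0.39 in VMH and -0.07 ± 0.27 in Arc, with a DMH minus VMH of -3.04 ± 0.26 (limma, adjusted p = 0.00321). Its DMH minus Arc was -1.86 ± 0.29 (limma, adjusted p = 0.0526) and passed in 5 of 18 alternative settings. Nlgn1, the postsynaptic adhesion gene neuroligin, also passed as higher in VMH than in Arc, by 1.58 ± 0.27 (limma, adjusted p = 0.0488), a call lost in 12 of 18 alternative settings. None of the 16 passed in DMH minus Arc, where 7 had an unadjusted p under 0.05, against 16.6% of all genes tested. The median difference over the 16 was -0.33 in DMH minus VMH, 0.05 in DMH minus Arc and 0.32 in VMH minus Arc. Fam19a1 was, like Cbln1 on its brightest probe, highest on the VMH arrays and lowest on the Arc arrays. With the probes of each gene averaged, Cbln1 had a DMH minus Arc of only 0.40 ± 0.61, against 1.89 ± 0.35 on its brightest probe.

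Among the chemokines proper, 16 of 23 listed were measured and by limma 0 passed in each pair. At an unadjusted p under 0.05 there were 2 in DMH minus VMH, 2 in DMH minus Arc and 5 in VMH minus Arc, against 13.2%, 16.6% and 14.2% of all genes tested. Of 20 chemokine receptor names, 10 were measured and 0 passed in each pair by limma, with 1, 2 and 3 at an unadjusted p under 0.05. The lists of partners, ligands, chemokines and markers were set with earlier results of these arrays known.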

How the data were processed

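Each sample was hybridised to its own 1-colour array with Cy5. Per the file headers and the submitters' processing notes, the authors quantified spots with Agilent Feature Extraction 11.5.1.1, and the processed signal is an intensity, background-subtracted and not normalized between arrays. The deposited flags for spots well above background, saturated or outlying were used as given. Coordinates are those of the array design, on mm9. The series-wide value table was not used here, because its columns run in constant steps.

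Control spots were left out, leaving 59305 spots, and log2 of the signal was taken relative to the array's 75th percentile over these spots. Outlier spots were then left out on the arrays that flagged them, and spots of a probe were averaged. Probes were kept (41480) where all arrays of any 1 nucleus had them well above background, and each gene was represented by its brightest probe. In R 4.3.3 with limma 3.58.1, lmFit and eBayes were fitted to 3 nucleus means over 8 arrays (5 residual degrees of freedom). P-values were adjusted by Benjamini-Hochberg over 27422 genes, with a threshold of 0.05. The script was tested on simulated arrays. The members, gene lists and alternatives were chosen with earlier results of these data known. The text names all members, measured partners (of which 2 are not reported here), list genes that passed (at most 4 per pair), the nearest neighbours and the 5 most similar genes per member. Nrxn3 probes were singled out after their values were seen. Groups and replicate numbers come from the labels.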

Additional observations from a re-analysis of the deposited data

How the results depend on the processing

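The alternatives were normexp background correction, quantile normalization, the 75th percentile over probes detected on all arrays, no filter, a filter for probes above background on all 8 arrays, the mean of a gene's probes, a trended and robust prior, array weights, a replicate block, a slide row block, and each array left out. No member difference changed sign in any of these, except Fam19a3 in DMH minus VMH (sign kept in 14 of 17) and Fam19a4 in VMH minus Arc (13 of 17). Under the filter for all 8 arrays, of the members only Fam19a2 and Fam19a5 had values. Causes of the changes below were not tested.

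Normexp, which adds an offset of 50, gave smaller differences: Fam19a4 3.17 in DMH minus VMH and 3.22 in DMH minus Arc, Fam19a1 1.27 in DMH minus Arc and 3.01 in VMH minus Arc, Fam19a2 1.69 and 1.31, and Fam19a3 -0.69 and -0.70 in these last 2 pairs. Genes called under normexp were 333 lower in DMH minus VMH, against 216, 110 higher and 124 lower in DMH minus Arc, against 67 and 50, and 150 lower in VMH minus Arc, against 87. Without a filter, genes called higher and lower were 79 and 121 in DMH minus VMH, against 121 and 216, 25 and 16 in DMH minus Arc, and 111 and 53 in VMH minus Arc, against 181 and 87. The mean of probes gave 124 and 83 in DMH minus Arc, the trended and robust prior 123 and 102, and array weights 27 and 16. The trended and robust prior gave 280 higher in VMH minus Arc. The slide row block gave 64 and 103 in DMH minus VMH, 36 and 22 in DMH minus Arc, and 113 and 51 in VMH minus Arc.

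The replicate block gave 69 and 94 genes in DMH minus VMH, 20 and 12 in DMH minus Arc, and 46 and 28 in VMH minus Arc. Samples of the same number deviated together only weakly (r = 0.072 to 0.185 over 7 pairs, against -0.126 to 0.015 over 14 pairs of different numbers), though 8 of 8 arrays correlated best with their own number. The deviations were taken from the nucleus means and cancel within a nucleus, so the pairs are not independent. For the 2 Arc arrays the values mirror each other, with r = 0.08 and -0.08 against VMH replicate 1. The labels give the numbers no meaning, so no pairing was taken from them.

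Among other neurexin ligands, DMH minus Arc had 1 call, C1ql2, under normexp, quantile normalization, the all-array filter, the mean of probes and the trended and robust prior. VMH minus Arc had 1 call in place of 2 under quantile normalization, the percentile over detected probes, no filter, the all-array filter, the replicate block and the slide row block, and DMH minus VMH had 1 in place of 2 under the all-array filter. Chemokines had 1 call in DMH minus VMH, Cxcl9, under normexp, the all-array filter, the mean of probes, the trended and robust prior and array weights. Genes within 1 Mb had 1 call in DMH minus VMH and 1 in VMH minus Arc, Fam212b, under the mean of probes, and 1 in DMH minus Arc, Kcnd3, under the trended and robust prior. Partners had 1 call, Nrxn3, in DMH minus VMH and 1 in VMH minus Arc under the mean of probes.

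Leaving out 1 array in turn gave 43 to 131 genes higher and 56 to 199 lower in DMH minus VMH, 23 to 96 and 13 to 32 in DMH minus Arc, and 44 to 191 and 43 to 75 in VMH minus Arc. A lone Arc array is then assumed to vary like the other nuclei. Fam19a4 ranged over 3.68 to 4.64 in DMH minus VMH and 3.80 to 4.80 in DMH minus Arc, and Fam19a1 over 1.75 to 3.86 in DMH minus Arc and 4.03 to 6.14 in VMH minus Arc. Chemokines had 0 to 1 calls in DMH minus VMH, and other neurexin ligands 1 to 2 in VMH minus Arc. Signals near background, as for Fam19a3 in DMH and VMH and Fam19a1 in Arc, limit what can be said of levels there.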

Other observations

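Cxcl9, an interferon-induced chemokine singled out after its values were seen, had mean log2 signals of 1.76 ± 0.23 in DMH, 3.04 ± 0.19 in VMH and 2.25 ± 0.43 in Arc. Its DMH minus VMH was -1.28 ± 0.24 (limma, adjusted p = 0.0548). Kcnd3, a potassium channel gene 906 kb from Fam19a3 and likewise singled out afterwards, had means of 2.79 ± 0.05 in DMH, 3.50 ± 0.20 in VMH and 3.86 ± 0.20 in Arc, with a DMH minus Arc of -1.06 ± 0.21 (limma, adjusted p = 0.094).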
